A study of Mus musculus with 32 samples.

Results

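The circadian clock genes of the mouse distal colon were followed as a set of 10 genes: Arntl, Clock, Npas2, Per1, Per2, Per3, Cry1, Dbp, Tef and Nr1d2. Their names were matched to the symbols of the array platform, and each gene was read from the probe set with the highest mean signal over the 32 arrays, which took 1 of the gene's probe sets (26 in all for the 10 genes, of 45101 on the array). All 10 genes had a usable probe set among the 18193 genes tested, and none of the chosen probe sets lay on the floor of the scale on any array. The choice of probe set did not use any difference between groups. The 10 genes themselves, and the further clock genes described below, were chosen with earlier results of these data known. Their shares set against all genes therefore describe lists picked with these data in view.

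The study measured total RNA of the distal colon on Affymetrix expression arrays, 1 array for each of 32 mice. Wild type (WT) mice were compared with mice without Myd88 (Myd88-/-, knockout, KO), an adaptor of Toll-like, IL-1 and IL-18 receptor signalling. The labels give the strain of all groups as C57 BL6NCr, and the KO line as backcrossed until at least 98% of its background matched. The 10 treated WT and 10 treated KO mice were 6 to 8 weeks old when they received azoxymethane (AOM, a colon carcinogen) at 10 mg/kg into the peritoneum. After 1 week their drinking water held 2% dextran sodium sulfate (DSS, a detergent-like polymer that damages the colonic mucosa) for 3 days, after which they were killed. The labels call their state colitis. The 6 untreated WT and 6 untreated KO mice carry no agent, dose or age in the labels, and the genotype of the untreated WT mice is known from their titles alone. The labels describe the samples of a group as biological repeats. They do not say which segment of Myd88 was removed, or give sex, batch or the hour at which a colon was collected. AOM and DSS were always given together, so their effects cannot be told apart. Each mouse was sampled once, so a change in the mean level of a clock gene and a shift of its phase cannot be told apart here. If the hour of collection or the age differed between treated and untreated mice, that cannot be told apart from treatment.

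The mammalian clock is a transcriptional loop in nearly every cell. Arntl (BMAL1) pairs with CLOCK or its relative NPAS2, binds E-box sequences and switches on the Per and Cry genes, whose proteins return to the nucleus and repress that pair. The same pair drives Dbp, Tef and the nuclear receptors Nr1d1 and Nr1d2 (REV-ERBs): DBP and TEF pass the rhythm to output genes through D-box sequences, and the REV-ERBs repress Arntl, so that Arntl peaks when Dbp and the Per genes are low. In the intestine the clock follows feeding as well as light, and is known for timing epithelial renewal and mucosal defence.

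Signals are on a log2 scale after quantile normalization, so a difference of 1 is a doubling, and a gene is called when its Benjamini-Hochberg adjusted p over all 18193 genes in limma is under 0.05. The correlation between arrays of the same group, across genes, was 0.935 to 0.985. Without treatment, the mean Myd88 signal of WT mice was 8.40 ± 0.11 (SD, n = 6) and that of KO mice 7.67 ± 0.11 (SD, n = 6). After treatment the means were 8.46 ± 0.12 and 8.00 ± 0.31 (SD, n = 10 each). The highest treated KO array (8.31) lay above the lowest treated WT array (8.26), and whether the probes lie in the removed segment is not given in the sources used here. All 8 markers of colon epithelium, among them the colonocyte enzyme Car1 and the mucin Muc2, were well above the floor on every array. Xist signal was above 8 on 3 of 6 arrays in both untreated groups and on 5 of 10 in both treated groups. These were replicates 1 to 3 of each untreated group and replicates 1 to 5 of each treated group. In whole tissue, fewer cells of a type and less RNA per cell cannot be told apart.

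The output genes Dbp and Tef were lower in mice treated with AOM and DSS than in untreated mice, in both genotypes. In WT mice 4 of the 10 clock genes were called, 1 higher (Arntl) and 3 lower (Per1, Dbp and Tef). Among all genes 1.84% were called in this comparison, 0.605% higher and 1.24% lower. These 335 genes were 165 to 203 without any 1 of the 6 untreated WT arrays, and 202 without treated WT replicate 7. In 3 of the 10 (Per1, Dbp and Tef) the treated and untreated WT arrays did not overlap, against 1.42% of all genes. In KO mice 4 of the 10 were called, all lower (Per2, Dbp, Tef and Nr1d2). Here 18.7% of all genes were called, 8.7% higher and 10% lower, so that the share of clock genes called was closer to the background than in WT mice. With each array centred on its median instead, 1856 genes were higher and 964 lower in KO mice, in place of 1582 and 1824, and of the clock genes Dbp alone was then called. Dbp was also the only clock gene whose treated and untreated KO arrays did not overlap, against 2.04% of all genes. The median log2 difference of the 10 genes was -0.39 in WT and -0.29 in KO mice, where the median of all genes was 0.

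**Figure D1:**
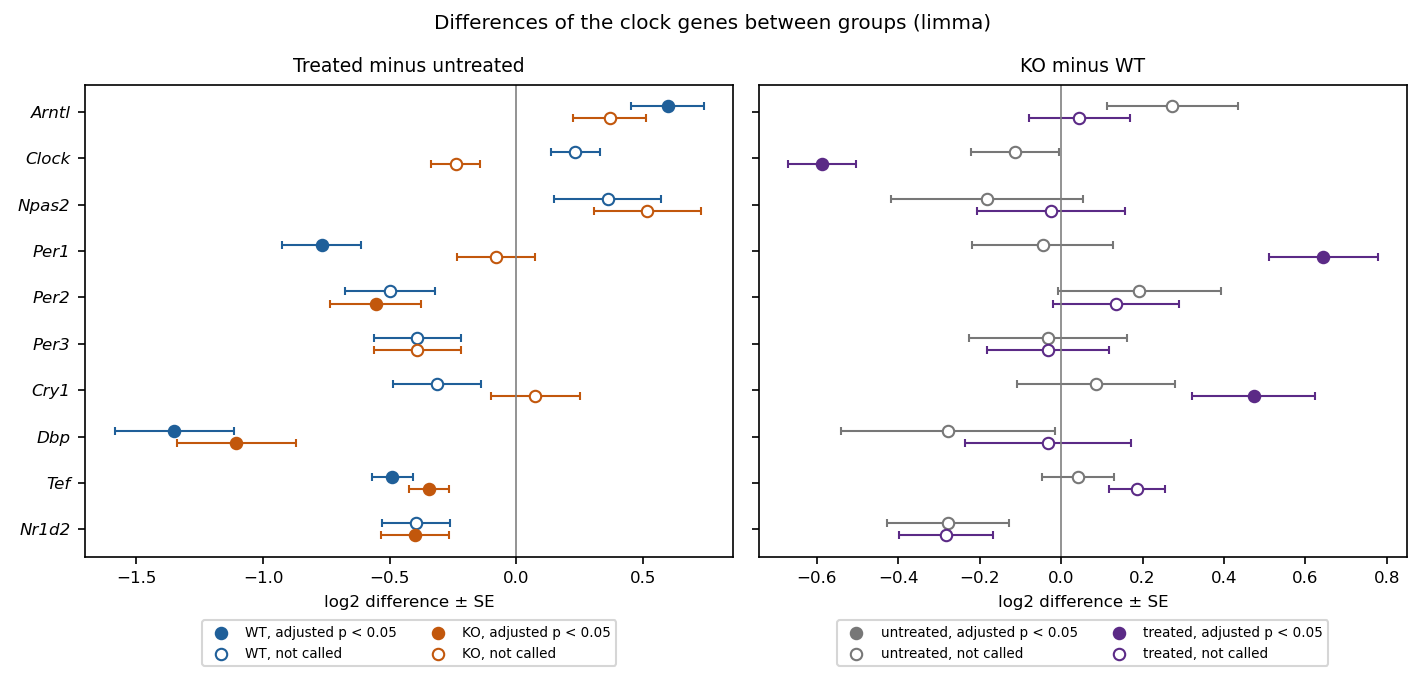
Log2 differences of the 10 clock genes (points, with bars of ± 1 standard error from limma) for treated minus untreated mice in each genotype (left) and KO minus WT mice without and with treatment (right). Filled points are called at an adjusted p under 0.05. Dbp lay furthest to the left in both genotypes (-1.35 in WT and -1.11 in KO mice), and Per1, Cry1 and Clock were the genes called between treated KO and treated WT mice.

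Dbp encodes a PAR bZIP activator, one of the clock's most rhythmic outputs, and had the largest response of the 10 genes. Its signal ran from 10.90 to 11.44 (median 11.22) in untreated WT mice and from 9.00 to 10.79 (median 9.96) in treated WT mice. In KO mice it ran from 10.62 to 11.27 (median 10.87) without and from 8.76 to 10.43 (median 10.03) with treatment. Every treated array thus lay under every untreated array of its genotype. Dbp fell by 1.35 ± 0.23 on the log2 scale in WT mice (2.55-fold, limma adjusted p = 0.00258) and fell by 1.11 ± 0.23 in KO mice (2.15-fold, adjusted p = 0.00140). A second Dbp probe set fell by 1.29 ± 0.21 in WT (p adjusted over all probe sets = 0.00174) and by 0.90 ± 0.21 in KO mice (0.00357). Dbp was called in both genotypes under all 46 alternative settings and left-out arrays.

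Tef encodes a close relative of DBP that binds the same D-box sequences. Its signal ran from 9.27 to 9.63 (median 9.49) in untreated WT and from 8.75 to 9.22 (median 9.05) in treated WT mice, again with no overlap. In KO mice it ran from 9.43 to 9.58 (median 9.56) without and from 8.83 to 9.44 (median 9.20) with treatment, so that the highest treated array just passed the lowest untreated one. Tef fell by 0.49 ± 0.08 in WT mice (adjusted p = 0.00146) and by 0.34 ± 0.08 in KO mice (adjusted p = 0.00288). The change was smaller than that of Dbp on this scale, but the arrays of a group lay closer together. With arrays centred on their medians the KO difference was -0.23 and was not called (adjusted p = 0.0917). A second probe set of Tef fell by 0.61 ± 0.13 in WT and by 0.59 ± 0.13 in KO mice (p adjusted over all probe sets = 0.0198 and 0.00304), and the third, at -0.35 and -0.36, was not called in either genotype (0.207 and 0.0543).

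Nr1d2 (REV-ERB beta) closes the second loop by repressing Arntl. Its signal ran from 11.17 to 11.44 (median 11.26) in untreated WT and from 10.47 to 11.29 (median 10.89) in treated WT mice, with the upper treated arrays inside the untreated range. In KO mice it ran from 10.83 to 11.22 (median 11.01) without and from 9.89 to 10.95 (median 10.70) with treatment, also overlapping. The differences were -0.40 ± 0.13 in WT (adjusted p = 0.133) and -0.40 ± 0.13 in KO mice (adjusted p = 0.0342), nearly the same value on either side of the threshold. The KO call did not hold without any 1 of treated KO replicates 1, 2 and 4 or untreated KO replicates 1, 3 and 4 (adjusted p from 0.0548 to 0.0809), or with arrays centred on their medians (-0.31, adjusted p = 0.140). It held in 34 of 46 alternatives. The other losses were when the compared groups alone were fitted and at an adjusted p under 0.01. It was also lost with an RNA integrity (3'/5') covariate and with a smooth muscle or a colon epithelium marker mean as covariate. A second Nr1d2 probe set was at -0.49 ± 0.14 in WT and -0.38 ± 0.14 in KO mice. Neither was called (limma p adjusted over all probe sets = 0.105 and 0.0757). Between treated genotypes it was at 0.10 ± 0.12, and the chosen probe set at -0.28 ± 0.12.

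Among the repressors, Per1, the Per gene best known for rapid induction by outside signals, responded in WT mice. It has 1 probe set, whose signal ran from 7.45 to 8.05 (median 7.57) in untreated WT and from 6.42 to 7.44 (median 6.79) in treated WT mice. In KO mice it ran from 7.27 to 7.84 (median 7.68) without and from 7.01 to 8.08 (median 7.44) with treatment. The WT arrays were thus parted, narrowly, while the treated KO arrays spread to both sides of the untreated ones. Per1 fell by 0.77 ± 0.15 in WT mice (1.70-fold, adjusted p = 0.00872), and the difference was -0.08 ± 0.15 in KO mice (adjusted p = 0.799). With squamous epithelium and skeletal muscle marker means as covariates the WT difference was -0.51 and was not called (adjusted p = 0.0773).

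Per2 and Per3, which encode the other PERIOD proteins, were lower after treatment in both genotypes by similar amounts, and of these 4 differences that of Per2 in KO mice was called. Per2 ran from 8.09 to 8.90 (median 8.52) in untreated WT, 7.43 to 8.53 (median 7.98) in treated WT, 8.49 to 8.97 (median 8.62) in untreated KO and 7.51 to 8.74 (median 8.07) in treated KO mice. The treated arrays overlapped the untreated ones in both genotypes. The difference was -0.50 ± 0.18 in WT (adjusted p = 0.162) and -0.56 ± 0.18 in KO mice (1.47-fold, adjusted p = 0.0286). The KO call did not hold without treated KO replicate 7 or untreated KO replicates 4 or 6 (adjusted p from 0.0514 to 0.0729). It held in 38 of 46 alternatives. The other losses were with arrays centred on their medians, when the compared groups alone were fitted and with the replicate number as a block. It was also lost with an RNA integrity (3'/5') covariate and at an adjusted p under 0.01. A second Per2 probe set fell by 0.99 ± 0.22 in KO mice (p adjusted over all probe sets = 0.00294), and the third gave -0.13 ± 0.23 (0.802).

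Per3 differed by -0.39 ± 0.17 in both genotypes, not called in WT (adjusted p = 0.274) or KO mice (adjusted p = 0.117), and its groups overlapped. In WT mice its 6 probe sets were all lower, from -0.31 to -0.53, with none called. In KO mice they did not give 1 answer. From brightest to dimmest, those not chosen were there at -0.39, -0.94, -0.42, 0.01 and 0.33. Of these the fall of 0.94 ± 0.22 was called (p adjusted over all probe sets = 0.00358). The dimmest, on the floor on 3 arrays, was at 0.33 ± 0.22 (0.357). Cry1, which encodes a cryptochrome that represses late in the cycle, has 1 probe set. It differed by -0.31 ± 0.17 in WT (adjusted p = 0.412) and 0.07 ± 0.17 in KO mice (adjusted p = 0.846).

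Of the activators, Arntl rose in WT mice. Its signal ran from 6.63 to 7.13 (median 6.83) in untreated WT and from 7.10 to 7.93 (median 7.47) in treated WT mice, overlapping at the edge. In KO mice it ran from 6.94 to 7.32 (median 7.15) without and from 7.04 to 8.17 (median 7.40) with treatment. The rise was 0.60 ± 0.14 in WT mice (1.51-fold, adjusted p = 0.0256), and the difference was 0.37 ± 0.14 in KO mice (adjusted p = 0.0719). The WT call did not hold without any 1 of treated WT replicate 7 and untreated WT replicates 1, 2, 4 and 6 (adjusted p from 0.0504 to 0.0726), or with arrays centred on their medians (0.59, adjusted p = 0.0548). It held in 36 of 46 alternatives. The other losses were with probe sets averaged, with an RNA integrity (3'/5') covariate, with squamous epithelium and skeletal muscle covariates and at an adjusted p under 0.01. The KO difference was called in 4 of 46 alternatives (lowest limma adjusted p = 0.0251). These were the filter on dim genes, a smooth muscle marker mean as covariate, and leaving out treated KO replicate 4 or 8. The second Arntl probe set differed by 0.11 ± 0.13 in WT mice (p adjusted over all probe sets = 0.837), so the rise was seen in 1 of 2 probe sets.

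Npas2, the CLOCK relative, was higher by 0.36 ± 0.21 in WT (adjusted p = 0.441) and 0.52 ± 0.21 in KO mice (adjusted p = 0.0864). The treated KO arrays spread most, from 5.46 to 7.34 (median 6.93), over and past the untreated KO range of 5.90 to 6.47 (median 6.26). A second, dimmer Npas2 probe set, on the floor on 4 arrays, rose by 0.89 ± 0.29 in KO mice (p adjusted over all probe sets = 0.0394) and was at 0.87 ± 0.29 in WT mice (0.175). The KO difference was called with the probe sets averaged (0.71, adjusted p = 0.0304), with squamous epithelium and skeletal muscle covariates (0.56, adjusted p = 0.0412) and without treated KO replicate 8 (0.66, adjusted p = 0.00844). Clock itself differed by 0.23 ± 0.10 in WT mice (adjusted p = 0.241) and by -0.24 ± 0.10 in KO mice (adjusted p = 0.0825), opposite signs with neither called. In WT mice the other 3 Clock probe sets were at 0.07, -0.06 and -0.17, none called. In KO mice they were at -0.58, -0.30 and -0.35, the first of them called (p adjusted over all probe sets = 0.0210, 0.0862 and 0.0932). The KO difference of Clock was called with its probe sets averaged (-0.37, adjusted p = 0.00986), with array weights (-0.29, adjusted p = 0.0376) and without treated KO replicate 9 or untreated KO replicate 5 (adjusted p = 0.0275 and 0.0475).

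**Figure D2:**
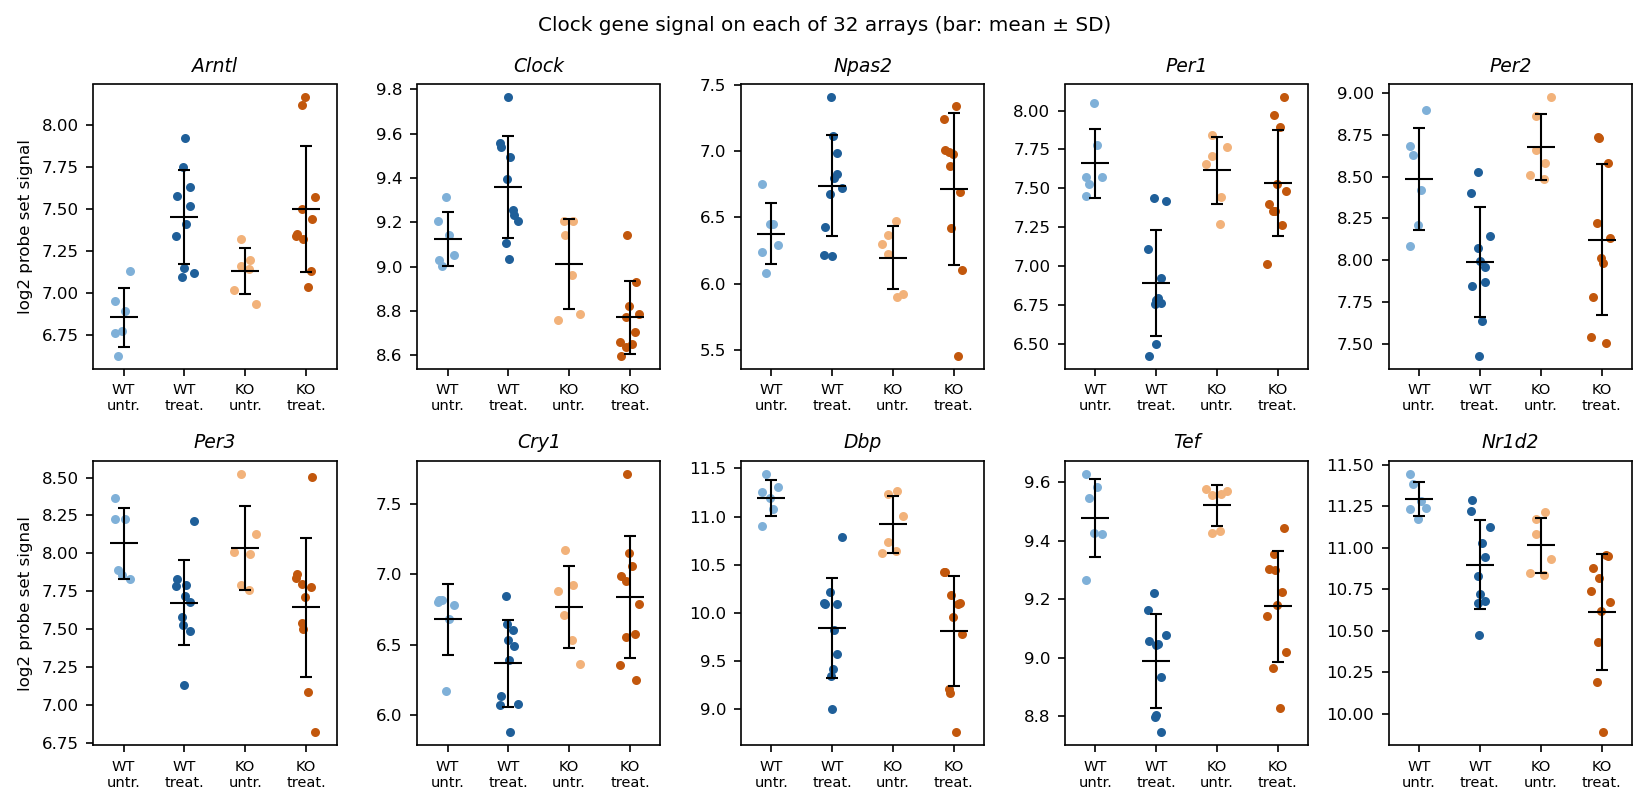
Log2 probe set signal of each of the 10 clock genes on all 32 arrays, by group (untr., untreated; treat., treated), with the mean and ± 1 SD as bars; each panel has its own vertical scale, which does not start at 0. The treated arrays of Dbp lie under the untreated ones in both genotypes, and the treated KO arrays of Clock lie low (8.60 to 9.14).

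The starts of these genes were searched for the sequences through which the loop is known to act, and the windows that held an E-box or a D-box are shown with the window of Ciart, a clock-driven repressor described with the other clock genes, to show what these stretches look like. The windows are the 250 bases before the gene's start in RefSeq (build GRCm38.p6), written 5′ to 3′ on the gene's strand, with the matched motifs in capitals: the E-box CACGTG, the D-box TTATGTAA or TTACGTAA and the core AGGTCA of the element bound by REV-ERB and ROR receptors, each on either strand. They are chr11:69098699-69098948 (plus strand) for Per1, chr10:85185055-85185304 (minus strand) for Cry1, chr15:81802423-81802672 (plus strand) for Tef, chr4:151044666-151044915 (minus strand) for Per3 and chr3:95882229-95882478 (minus strand) for Ciart.
Per1: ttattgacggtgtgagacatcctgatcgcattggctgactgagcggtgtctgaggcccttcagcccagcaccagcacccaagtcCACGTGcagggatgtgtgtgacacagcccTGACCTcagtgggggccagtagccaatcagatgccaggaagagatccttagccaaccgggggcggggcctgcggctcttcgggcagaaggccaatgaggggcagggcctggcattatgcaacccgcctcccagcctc
Cry1: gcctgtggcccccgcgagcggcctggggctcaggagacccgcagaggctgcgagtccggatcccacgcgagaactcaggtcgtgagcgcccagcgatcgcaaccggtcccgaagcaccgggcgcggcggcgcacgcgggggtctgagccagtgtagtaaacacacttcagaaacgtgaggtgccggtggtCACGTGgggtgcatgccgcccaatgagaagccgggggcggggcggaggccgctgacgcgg
Tef: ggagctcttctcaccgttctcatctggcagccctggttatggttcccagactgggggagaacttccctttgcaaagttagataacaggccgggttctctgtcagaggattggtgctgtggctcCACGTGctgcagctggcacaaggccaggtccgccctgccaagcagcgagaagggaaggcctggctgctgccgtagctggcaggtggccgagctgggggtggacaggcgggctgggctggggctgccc
Per3: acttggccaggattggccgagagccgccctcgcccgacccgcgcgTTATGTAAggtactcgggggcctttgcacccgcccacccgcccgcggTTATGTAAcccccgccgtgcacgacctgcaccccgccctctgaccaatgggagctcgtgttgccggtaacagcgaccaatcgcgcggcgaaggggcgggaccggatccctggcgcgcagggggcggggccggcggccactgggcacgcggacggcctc
Ciart: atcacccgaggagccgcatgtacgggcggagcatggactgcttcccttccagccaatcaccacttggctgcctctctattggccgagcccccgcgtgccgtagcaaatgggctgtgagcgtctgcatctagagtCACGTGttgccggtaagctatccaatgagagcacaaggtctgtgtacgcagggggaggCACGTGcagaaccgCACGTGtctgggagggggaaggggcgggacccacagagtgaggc
Of the 10 clock genes 9 were in the table. Each clock gene was read at its start farthest upstream, while the shares of windows are over all starts listed. An E-box was found in 3 of these 9 (Per1, Cry1 and Tef), against 6.02% of 32851 promoter windows, and Dbp held none of the motifs searched. An E-box was found in 2 of the 15 other clock genes listed there, Ciart, with 3 of them, and Bhlhe41; Usp2 held none. Among the 9, a D-box was found in Per3 alone, which held 2, against 0.931% of windows. Among the 15 it was found in Timeless. The REV-ERB and ROR core was found in Per1 and Nr1d2 of the 9 and in Nfil3 and Nampt of the 15, against 14% of windows. The cyclic AMP response element TGACGTCA was found in none of the 9 and in Hlf of the 15, against 1.55%. With the base before the start counted as -1, the E-box lay at -166 to -161 in Per1, at -60 to -55 in Cry1 and at -127 to -122 in Tef. Among these E-box genes Tef fell in both genotypes, Per1 fell in WT mice and Cry1 was called in neither. A match is a description of the letters and not of binding.

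Whether the treatment response depended on Myd88 was tested directly as the difference between the KO and the WT response. None of the 10 genes was called in limma (2 had an unadjusted p under 0.05, and 0.055% of all genes were called). That background count of 10 genes moved with the arrays and settings, to 164 without treated KO replicate 9, 36 without treated KO replicate 6, 3 to 18 without any other single array, and 257 with array weights. Per1 had the largest value, 0.69 ± 0.22 (adjusted p = 0.201), and Clock the most extreme negative one, -0.47 ± 0.14 (adjusted p = 0.173). With array weights Clock was called (-0.51, adjusted p = 0.0370). The value was 0.25 ± 0.33 for Dbp (adjusted p = 0.836) and 0.15 ± 0.11 for Tef (adjusted p = 0.663). The 95% interval for Dbp ran from -0.43 to 0.93, so differences in response within those limits are not excluded.

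Treated KO and treated WT mice differed in 3 of the 10 clock genes. Clock was lower, and Per1 and Cry1 were higher, in treated KO than in treated WT mice. Of all genes 12.8% were called here, 6.24% higher and 6.57% lower. With arrays centred on their medians 1390 of all genes were higher and 474 lower, in place of 1135 and 1196, and under that centring the 3 calls stood and Tef was called as well, higher in KO mice. The median difference of the 10 genes was 0.01, with 5 higher and 5 lower. In none of the 10 genes were the treated KO and treated WT arrays free of overlap, which 0.231% of all genes were.

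Clock encodes the DNA-binding partner of BMAL1. Its signal ran from 9.03 to 9.76 (median 9.33) in the treated WT mice and from 8.60 to 9.14 (median 8.74) in the treated KO mice. Treated KO replicate 9, at 9.14, was the only treated KO array to reach the treated WT range. The untreated arrays ran from 9.00 to 9.32 (median 9.10) in WT and from 8.76 to 9.21 (median 9.05) in KO mice, with 3 of the 6 KO arrays under the lowest WT array. The difference was -0.59 ± 0.08 (1.5-fold, adjusted p = 6.71e-05), and it was called under all 46 alternative settings and left-out arrays. The other 3 Clock probe sets gave -0.73 ± 0.15, -0.33 ± 0.10 and -0.32 ± 0.12 (p adjusted over all probe sets = 0.00236, 0.0343 and 0.0986), the same direction with 2 of 3 called.

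Per1 was higher by 0.64 ± 0.13 in treated KO than in treated WT mice (1.56-fold, adjusted p = 0.00219). The treated ranges (7.01 to 8.08 in KO and 6.42 to 7.44 in WT mice) overlapped, and the treated KO range took in all untreated arrays of both genotypes. Cry1 ran from 5.88 to 6.85 (median 6.44) in the treated WT mice and from 6.25 to 7.72 (median 6.87) in the treated KO mice, and was higher by 0.47 ± 0.15 (adjusted p = 0.0364). The call of Cry1 rested on many single arrays: it did not hold without any 1 of treated WT replicates 2, 4, 8 and 10 and treated KO replicates 1, 4, 5, 9 and 10 (adjusted p from 0.0507 to 0.0757), or in the values as deposited (0.40, adjusted p = 0.0666). It held in 30 of 46 alternatives. The other losses were when the compared groups alone were fitted, with array weights and at an adjusted p under 0.01. It was also lost with RNA integrity (3'/5'), squamous and skeletal muscle, or colon epithelium covariates. The other 7 genes were not called, with Tef at 0.19 ± 0.07 (adjusted p = 0.0743; called with arrays centred on their medians, at 0.28 with adjusted p = 0.0236, and without any 1 of treated WT replicate 5 and treated KO replicates 1 and 4, adjusted p from 0.0260 to 0.0443), Nr1d2 at -0.28 ± 0.12 (adjusted p = 0.110) and Dbp at -0.03 ± 0.20 (adjusted p = 0.979).

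In untreated mice none of the 10 clock genes was called between KO and WT in limma, and none had an unadjusted p under 0.05. Of all genes 0.115% were called and 0.951% had groups that did not overlap; no clock gene did. The largest differences were those of Dbp, at -0.28 ± 0.26, Nr1d2, at -0.28 ± 0.15, and Arntl, at 0.27 ± 0.16 (adjusted p = 0.923, 0.742 and 0.780). With 6 mice in a group their 95% intervals were wide, from -0.82 to 0.26 for Dbp, from -0.58 to 0.03 for Nr1d2 and from -0.06 to 0.60 for Arntl.

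Markers of other tissue and of the epithelium moved with some of these groups. The mean of 11 squamous epithelium markers ran from 4.04 to 5.79 in WT mice without and 4.19 to 11.36 with treatment, and from 3.92 to 8.29 in KO mice without and 4.29 to 8.04 with treatment. All 11 were higher in treated than in untreated WT mice and 1 was called, and 1 of the 11 was on the floor on every untreated WT array. The mean of 8 skeletal muscle markers ran from 4.79 to 9.89, 4.90 to 10.56, 4.59 to 8.70 and 4.90 to 10.48 in the same order, and all 8 were higher in treated than in untreated WT mice, none of them called. With both means as covariates the WT response of Dbp was -1.29 (adjusted p = 0.0184) and that of Tef -0.49 (adjusted p = 0.00825). Arntl, at 0.58, and Per1, at -0.51, were not called (adjusted p = 0.0791 and 0.0773). Between treated genotypes 0 of 11 squamous markers (median difference -1.71) and 1 of 8 skeletal muscle markers (median -0.59) were higher in KO mice, with none called in either direction. With both means as covariates Clock and Per1 were still called between treated genotypes, and Cry1, at 0.47, was not (adjusted p = 0.0697).

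The mean of the 8 colon epithelium markers ran from 11.43 to 11.62 in WT mice without and 11.10 to 11.70 with treatment, and from 11.41 to 11.63 in KO mice without and 11.57 to 11.99 with treatment. In treated mice 7 of 8 were higher in KO than in WT and 3 were called, and 3 were called higher in treated than in untreated KO mice. With that mean as a covariate, chosen after the data were seen, the difference between treated genotypes was -0.42 for Clock (adjusted p = 0.0334), 0.45 for Per1 (adjusted p = 0.206) and 0.49 for Cry1 (adjusted p = 0.265). In that fit 164 of all genes were called between treated genotypes, in place of 2331. The KO treatment responses of Dbp and Tef were then -0.93 and -0.33 (adjusted p = 0.0369 and 0.0325). The mean of 5 immune cell markers ran from 5.62 to 6.89, 6.34 to 8.31, 5.99 to 6.65 and 5.70 to 7.99 in the same order, with none of the 5 called in any of the 5 comparisons, and its part in the clock gene differences was not tested. The mean of 3 enteric neuron markers ran from 5.88 to 6.53, 6.23 to 6.88, 5.99 to 6.31 and 6.15 to 7.21, with 2 of 3 called higher in treated than in untreated KO mice and 1 of 3 between treated genotypes, and its part was not tested. The mean of 7 smooth muscle markers ran from 11.17 to 11.91, 11.28 to 12.27, 11.17 to 11.65 and 10.81 to 12.43, with none called.

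A further 18 genes of the clock and its outputs were measured. After treatment 3 fell in WT mice and none rose, where 1.24% of all genes were called lower and 0.605% higher. In KO mice 5 fell and 2 rose, against 10% and 8.7% of all genes. The median difference was -0.19 in WT and -0.24 in KO mice. Ciart, Usp2 and Wee1, all known as rhythmic targets of the activator pair, fell in both genotypes, and remained called under all 46 alternative settings and left-out arrays.

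Ciart, which encodes a repressor of the CLOCK-BMAL1 pair and whose window with 3 E-boxes is printed above, ran from 7.70 to 8.18 (median 8.03) in untreated WT and from 6.00 to 7.43 (median 6.49) in treated WT mice. In KO mice it ran from 7.49 to 8.15 (median 7.94) without and from 6.07 to 7.48 (median 6.91) with treatment. Neither genotype's arrays overlapped. It fell by 1.37 ± 0.18 in WT (2.59-fold, adjusted p = 9.50e-05) and by 0.97 ± 0.18 in KO mice (1.96-fold, adjusted p = 0.000421).

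Usp2, a deubiquitinase that acts on clock proteins, fell by 1.17 ± 0.19 in WT (2.25-fold, adjusted p = 0.00126) and by 0.87 ± 0.19 in KO mice (adjusted p = 0.00171). Wee1, the kinase that holds cells before mitosis, fell by 0.95 ± 0.16 in WT (adjusted p = 0.00187) and by 0.96 ± 0.16 in KO mice (1.95-fold, adjusted p = 0.000147). In both genes the treated and untreated arrays did not overlap in WT mice and did in KO mice.

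The other calls among these genes were in KO mice. Nfil3, a bZIP repressor that competes with DBP and TEF for the D-box, was on the floor on 5 of 6 arrays in both untreated groups, on 3 of 10 treated WT arrays and on 1 of 10 treated KO arrays. It rose by 1.89 ± 0.46 in KO mice (adjusted p = 0.00397), where treated arrays reached 7.79, and the difference was 0.67 ± 0.46 in WT mice (adjusted p = 0.536). Most untreated arrays and some treated ones lay on the floor, so the size of either difference is not known. Nampt, the enzyme that sets the pace of NAD salvage, rose by 0.40 ± 0.09 in KO mice (adjusted p = 0.00303).

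Cipc, a repressor of CLOCK, fell by 0.58 ± 0.14 in KO mice (adjusted p = 0.00406), a call that did not hold with arrays centred on their medians or with its probe sets averaged (adjusted p up to 0.0796). Csnk1d, a kinase of PER proteins, fell by 0.33 ± 0.11 in KO mice (adjusted p = 0.0331), with a value of -0.01 when its probe sets were averaged. Its call held in 32 of 46 alternatives, and did not hold without any 1 of treated KO replicates 2, 4 and 6 and untreated KO replicates 1, 2 and 3. Bhlhe40 (DEC1), the brightest of those called in no comparison, was at -0.22 ± 0.08 in WT (adjusted p = 0.143) and -0.08 ± 0.08 in KO mice (adjusted p = 0.526).

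Between treated genotypes 2 of the 18 were called, a share near the 12.8% of all genes. Timeless, which takes part in DNA replication and the replication checkpoint, was higher in KO mice by 0.54 ± 0.16 (adjusted p = 0.0262), and Nfil3 by 1.17 ± 0.40 (adjusted p = 0.0490). The call of Nfil3 held in 13 of 45 alternatives, and that of Timeless in 39 of 46, not without treated WT replicate 10 or treated KO replicates 5 or 10. None of the 18 was called between untreated genotypes or in the difference of the responses, and none had an unadjusted p under 0.05 there in limma.

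**Figure D3:**
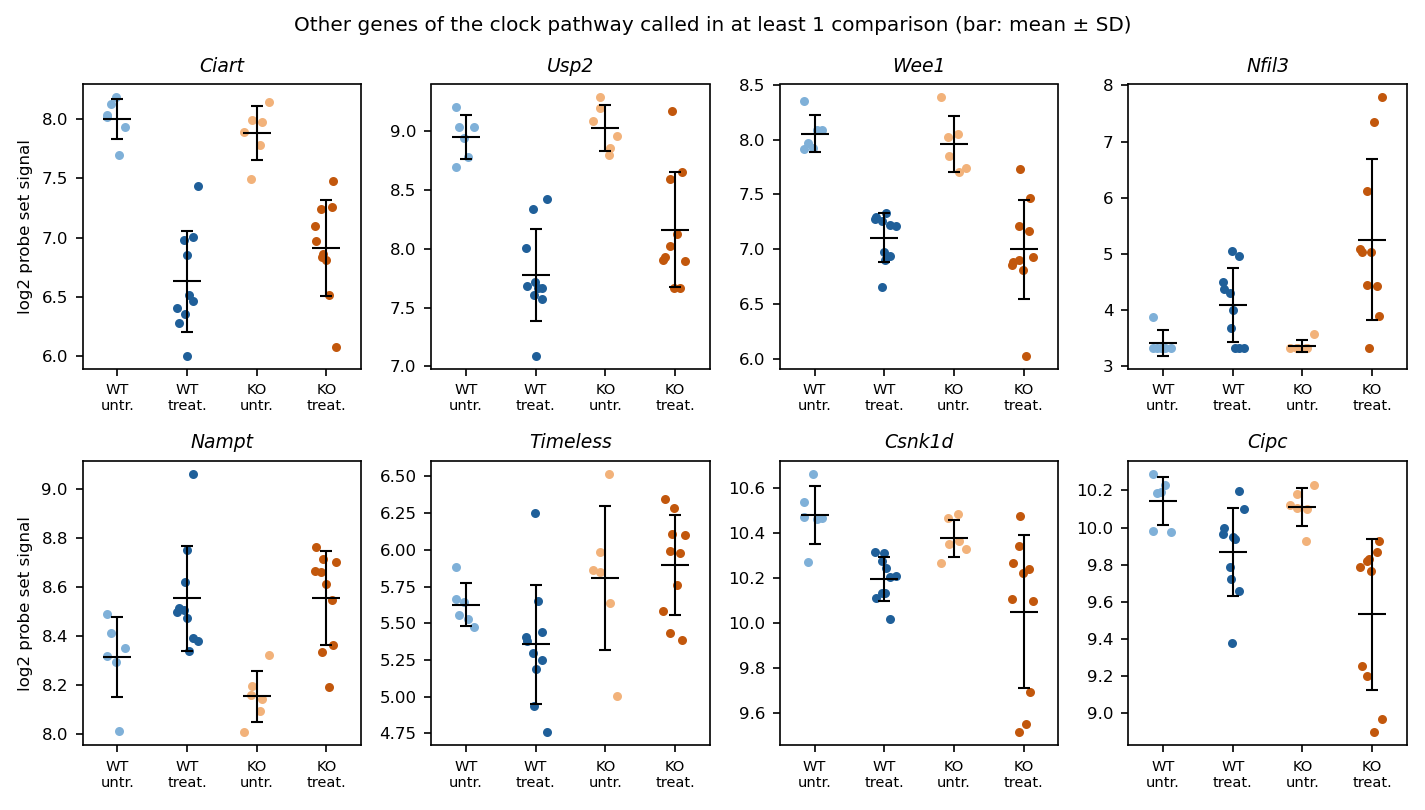
Log2 probe set signal on all 32 arrays of the 8 further clock genes called in at least 1 comparison, by group, with the mean and ± 1 SD as bars; each panel has its own vertical scale. Treated arrays of Ciart lie under the untreated ones in both genotypes, and Nfil3 sits on the floor of the scale on most untreated arrays.

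Mice of a treated group differed more from each other than untreated mice did. The SD of a clock gene was wider with than without treatment in 10 of 10 genes in WT mice, by a median ratio of 1.57, and in 9 of 10 in KO mice, by 2.03. Of all genes 63.1% were wider in WT, by a median ratio of 1.20, and 67.2% in KO mice, by 1.31. For Dbp the SD went from 0.19 to 0.52 in WT and from 0.29 to 0.57 in KO mice. No test was made of these spreads.

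Whether clock genes varied together between mice was examined on deviations from the group mean, over 32 arrays. For Arntl against the other 9 genes, Pearson r ran from -0.31 (Per1) to 0.36 (Npas2), and none of the 9 passed (within-group permutation, two-sided, adjusted p from 0.6001 to 0.914, with no unadjusted p under 0.05). Spearman's rho gave none either (adjusted p from 0.382 to 0.886). Against Dbp, which peaks in the opposite phase, the r of Arntl was -0.18 (rho -0.27, permutation p = 0.426 and 0.182), and -0.13 without the 2 arrays farthest from the median of Arntl (treated KO replicates 1 and 5). With probe sets averaged it was -0.41 (rho -0.47), with unadjusted p = 0.0377 and 0.0134 and adjusted p = 0.157 and 0.0663, and r was -0.24 without the 2 farthest arrays.

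All 45 pairs of the 10 genes were then examined, a family chosen after the data were seen, and 5 passed, all positive. They linked Dbp, Tef, Nr1d2 and Per3. Dbp and Nr1d2 varied most closely, with r 0.84 and rho 0.81 (permutation p = 1e-05 for both, the smallest that 100000 permutations can give, adjusted p = 0.00045). Without the 2 farthest arrays r was 0.77. Within single groups r was 0.46 in WT and 0.83 in KO mice without treatment, and 0.79 and 0.91 with it. In treated KO mice replicates 1 to 5 had Xist signal above 8, with Dbp from 8.76 to 9.96 and Nr1d2 from 9.89 to 10.67. Replicates 6 to 10 had Xist below 8, with Dbp from 10.10 to 10.43 and Nr1d2 from 10.74 to 10.95. In treated WT mice both genes overlapped between these replicates. The permutations shuffled arrays across this split, and none of the correlation alternatives used Xist, so its part was not tested.

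The other 4 pairs were Tef with Nr1d2 (r 0.68, rho 0.57, permutation p = 0.00022 and 0.00198, adjusted p = 0.00495 and 0.0223), Per3 with Tef (r 0.65, rho 0.60, permutation p = 0.00033 and 0.00056, adjusted p = 0.00495 and 0.01005), Dbp with Tef (r 0.60, rho 0.52, permutation p = 0.00176 and 0.00503, adjusted p = 0.0198 and 0.0453) and Per3 with Nr1d2 (r 0.58, rho 0.58, permutation p = 0.00329 and 0.00067, adjusted p = 0.0296 and 0.01005). Without the 2 farthest arrays their r was 0.56, 0.58, 0.45 and 0.67. Per1, Per2, Cry1, Clock, Npas2 and Arntl were in no pair that passed. In the 20 treated mice alone 3 pairs passed, and in the 12 untreated mice alone none did (unadjusted p under 0.05 in 4 of the 45).

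**Figure D4:**
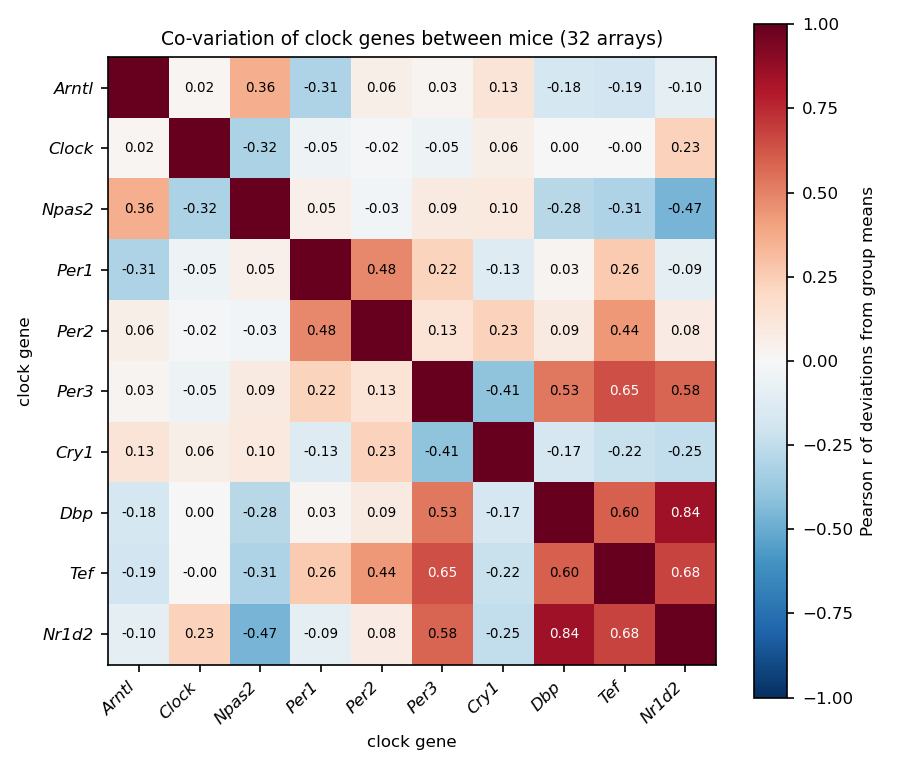
Pearson r between each pair of clock genes, computed on the deviations of the 32 arrays from their group means; colour and printed value give r. The block of high values joins Per3, Dbp, Tef and Nr1d2 (0.53 to 0.84), and Arntl stays between -0.31 and 0.36 with every other gene.

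**Figure D5:**
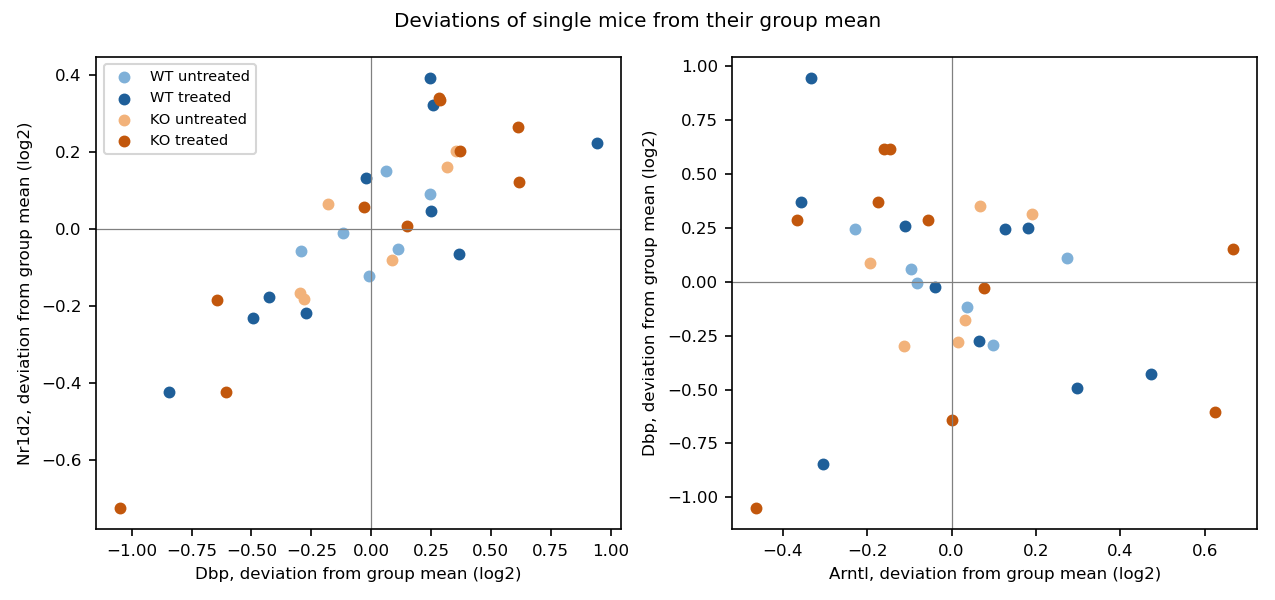
Deviation of each mouse from its group mean, in log2 units, for Nr1d2 against Dbp (left) and Dbp against Arntl (right), coloured by group. Dbp and Nr1d2 deviate together (r 0.84), and r was -0.18 for Dbp and Arntl.

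Likeness was also ranked over the whole array, as a description over 32 arrays that share normalization and tissue makeup. Among 10915 genes with a mean signal at or above the 40th percentile, Nr1d2 ranked 1 in absolute r with Dbp, Tef ranked 235 and Per3 546, where the median absolute r of all genes was 0.205. Among the 10650 of these left after the 10 clock genes and predicted genes (names with Gm, Rik or LOC) were set aside, the 8 most like Dbp were Klf9 (r 0.84), Crebrf (0.81), Pink1 (0.80), Maf1 (0.78), Rb1cc1 (0.77), Klhl24 (0.75), Crbn (0.75) and Pik3ip1 (0.75). Klf9 encodes a glucocorticoid-inducible zinc finger factor and Pink1 a mitochondrial kinase. Of the 8, Klf9, Pink1 and Maf1 were called lower after treatment in KO mice (-0.38 ± 0.13, -0.37 ± 0.12 and -0.32 ± 0.10, adjusted p = 0.0373, 0.0316 and 0.0232), and in WT mice the values were -0.30 ± 0.13, -0.33 ± 0.12 and -0.18 ± 0.10, none called (adjusted p = 0.250, 0.177 and 0.409). The 8 most like Arntl were Entpd8 (r 0.73), Drp2 (-0.68), Slc22a5 (0.67), Slc22a23 (0.66), Ptpro (-0.65), Cst3 (-0.65), Cys1 (-0.64) and Garem1 (0.63). No other gene of the set of 10 stood near them, Npas2 coming closest at rank 1206. The ranks of the further clock genes were not read out.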

How the data were processed

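Total RNA of 32 mouse distal colons was amplified, labelled with biotin and hybridised to Affymetrix arrays, 1 array a mouse, per the labels' protocols. Values were deposited by the authors on a log2 scale, 1 signal for each probe set and array; the software that summarised the probes and the scaling step are not given in the sources used here. The values show a floor of 3.322 (a linear signal of 10), which held 18.7% to 23.9% of the probe sets of an array, and a 2% trimmed mean of the linear signals between 150.9 and 151.28 on every array. Differences among dim genes are hidden by the floor, and those of very bright genes are compressed.

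Probe sets were named from the platform annotation, updated with a RefSeq gene table: of 45101 probe sets, 34958 had 1 symbol, 932 several and 9211 none. For each gene the brightest probe set, by mean over all arrays, was kept among those with a single symbol, which left 18193 genes. The log2 values were quantile normalized and fitted with limma 3.58.1 in R 4.3.3 as 4 group means over all 32 arrays (28 residual and 1.10 prior degrees of freedom), with 5 two-sided contrasts and Benjamini-Hochberg adjustment over all genes. On simulated data of this design, the fit recovered between 82% and 98% of genes changed 2-fold, with 2.51% to 11.6% false calls. The number of arrays limits the precision.

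Correlations used deviations from group means and 100000 permutations within groups. Promoter windows of 250 bases came from RefSeq (GRCm38.p6), of which 9 of 10 clock genes were found. The 10 genes and the lists of other clock genes and markers were chosen with earlier results of these data known. The text names all 10, the other clock genes called in any comparison and the brightest called in none, and the 8 genes most like Arntl and most like Dbp. Alternatives were the normalization, the choice of probe set, a filter on dim genes, covariates, array weights, the replicate number as a block, stricter calling and each array left out.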

Additional observations from a re-analysis of the deposited data

Results flagged for a closer look

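Each of the 10 clock genes was examined in each of the 4 groups for a single array far from the others, 40 sets in all, and 1 was found, where chance gives about 1 in 20. Cry1 in untreated WT replicate 6 had the lowest signal of its group, 6.17, with the nearest of the others at 6.69, a gap that took up 0.797 of the range of the group. Without that array the treatment difference of Cry1 in WT mice remained below 0 and was not called.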

How the results depend on the processing

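Of the recomputed differences of single clock genes in the 5 comparisons, 2132 kept their direction and their side of the threshold, 49 were no longer called, 19 became called and 90 changed sign; none of the 90 was called (lowest adjusted p 0.703). Signals on the floor cannot be compared, each mouse gives 1 time point, and the numbers of mice limit which small differences can be seen. The interaction could not be fitted to the compared groups alone, since it uses all 4 groups.

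The number of clock genes called after treatment in KO mice, 4, was 1 with median centring, 2 in the compared groups only, 2 when RNA integrity was a covariate (the 3'/5' covariate), 2 at an adjusted p under 0.01, and 2 (without untreated KO replicate 4) to 6 (without treated KO replicate 8) with single arrays left out. In WT mice it was 2 in place of 4 with squamous and skeletal muscle covariates and 6 with array weights (Per2 and Nr1d2 added). Between treated genotypes it was 1 in place of 3 with the colon epithelium covariate, chosen after the data were seen, and 4 with median centring (Tef added), and for the interaction 1 in place of 0 with array weights. The cause of these shifts was not tested.

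Among all genes, 335 were called after treatment in WT mice, against 213 with median centring, 159 when the 3'/5' covariate was added, 891 in the compared groups only and 1459 with array weights, and 165 (without untreated WT replicate 6) to 447 (without treated KO replicate 9) with single arrays left out. After treatment in KO mice it was 1919 in the compared groups only in place of 3406, and between treated genotypes 1338 in place of 2331.

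No pairing by replicate number was seen: deviations of same-numbered treated WT and treated KO arrays correlated at -0.17 to 0.24, and 0 of 10 matched best with their own number. In each of the other pairs of groups compared 1 of 6 did, and r reached 0.34 between untreated and treated KO arrays. Such correlations cannot exclude a pairing by something the labels do not give. The numbers did follow Xist signal, which was above 8 on the lower-numbered replicates of every group. With the replicate block, 3 clock genes were called after treatment in KO mice (Per2 at -0.46, adjusted p = 0.106), 4 in WT mice, 3 between treated genotypes, 0 between untreated ones and 0 in the interaction.

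The sign changed in these values, none of them called. Between treated genotypes Dbp was 0.088 with median centring, 0.0046 as deposited, 0.13 with probe sets averaged, 0.023 with array weights, 0.0050 with the 3'/5' covariate and 0.16 with the colon epithelium covariate. Per3 was 0.0043 with median centring and 0.061 with probe sets averaged, Npas2 0.10 with probe sets averaged, and Per2 -0.010 with squamous and skeletal muscle covariates. With the colon epithelium covariate Arntl was -0.17 and Per2 -0.14. Between untreated genotypes Npas2 was 0.0078 with probe sets averaged and Per1 0.0069 with array weights, and after treatment in KO mice Cry1 was -0.015 with array weights.

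In the interaction Per2 was 0.025 and Nr1d2 0.12 with median centring. As deposited, Per3 was -0.030 and Nr1d2 0.029. Nr1d2 was 0.051 with probe sets averaged. Per3 was -0.0041 with the 3'/5' covariate and -0.0042 with the Xist covariate. With squamous and skeletal muscle covariates Npas2 was -0.040, Per3 -0.11 and Nr1d2 0.045, and with the colon epithelium covariate they were -0.36, -0.15 and 0.15.

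With single arrays left out, values that changed sign ranged between treated genotypes from -0.13 to 0.084 (Dbp), -0.095 to 0.11 (Npas2), -0.13 to 0.060 (Per3) and -0.029 to 0.098 (Arntl). Between untreated genotypes they ranged from -0.13 to 0.028 (Per3), -0.0011 to 0.072 (Tef), -0.091 to 0.033 (Per1) and -0.016 to 0.17 (Cry1). After treatment in KO mice Cry1 ranged from -0.023 to 0.16. In the interaction the ranges were -0.095 to 0.098 (Per3), -0.053 to 0.075 (Nr1d2) and -0.14 to 0.023 (Per2).

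No correlation of Arntl passed in any of 6 alternatives. The r changed sign with median centring for Tef (0.089) and Nr1d2 (0.12), as deposited for Per3 (-0.0062), with squamous and skeletal muscle covariates for Clock (-0.0017), in treated mice alone for Clock (-0.059), and in untreated mice alone for Per2 (-0.0053), Dbp (0.067) and Nr1d2 (0.15). Of the 5 pairs, Dbp with Nr1d2 passed in 5 of 6 alternatives (r 0.73 to 0.88); the exception was the untreated mice alone. Tef with Nr1d2 passed in 5, Dbp with Tef and Per3 with Tef in 4 and Per3 with Nr1d2 in 3 of 6, and with probe sets averaged 3 of the 45 pairs passed.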
